A study of Mus musculus with 4 samples.

Results

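Genes that mark the ovarian surface epithelium and the mesothelium were followed in rOvaries, ovaries reconstituted by grafting an aggregate of primordial germ cells with somatic cells of the fetal gonad under the kidney capsule. The 10 genes were Upk3b, Upk1b, Krt7, Krt8, Krt18, Krt19, Msln, Muc16, Lrrn4 and Cdh1. They were chosen by name and make up 10 of the 54021 gene symbols in the count table, and all 10 were found there. The donor aggregates carried an actin-GFP transgene on a C57BL/6 background, and the recipients were ovariectomized female G2 Terc−/− mice, telomerase-deficient mice of the 2nd generation on the same background, 2 to 3 months old at grafting. A group of 2 libraries came from recipients given INK128, an inhibitor of the kinase mTOR, and the other 2 came from controls without INK128. By their replicate numbers they are called INK128 1, INK128 2, Control 1 and Control 3 here. All 4 rOvaries were collected 4 weeks after transplantation. According to the labels the dose of INK128 was 0.75 μM per g, and according to the methods it was 30 μM in the drinking water. The RNA came from whole grafts, so that fewer cells of a type and less RNA per cell cannot be told apart.

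The ovary is covered by a single layer of flat to cuboidal epithelium that is continuous with the mesothelium, the lining of the body cavity and of the organs in it. These cells keep mesenchymal traits but make keratins of simple epithelia, in which a type II chain (Krt7 or Krt8) pairs with a type I chain (Krt18 or Krt19) to form a filament. Mesothelin, encoded by Msln, and the large membrane mucin Muc16 bind each other on mesothelial surfaces, and Upk3b, Upk1b and Lrrn4 are used as mesothelial markers. E-cadherin, encoded by Cdh1, joins epithelial cells to each other. The keratins and E-cadherin are also made by tubules and collecting ducts of the kidney, and Krt8, Krt18 and Cdh1 by several cells of the gonad.

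Counts per library summed to between 19130209 and 23029089. CPM are counts scaled to a common library size. Over the tested genes the log2 CPM of both INK128 rOvaries had a correlation of 0.98, and those of both controls a correlation of 0.81. Control 1 stood apart from the other libraries. It held 1021 counts of 4 Y-linked genes, against 0 to 2 in the other 3 libraries, and the summed level of 5 Sertoli cell markers was 1067 CPM there against 61.6 to 124 CPM elsewhere. Control 3 was low in 7 oocyte markers, with a sum of 17.9 CPM against 521 to 765 CPM in the other libraries. The fold changes of the 10 genes, their median and the number of genes called were therefore also computed without each library. Labels do not say which libraries came from separate animals, so p-values measure the spread between these libraries.

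All genes of the list except Krt8, 9 of 10, were lower in both INK128 rOvaries than in both controls. Among all genes with a mean CPM above 10, 34% lay lower in both INK128 rOvaries than in both controls, and among all genes with a mean CPM above 1 the share was 35.3%. All 10 genes passed a mean CPM of 1 and 4 passed 10, but Upk1b, Msln and Muc16 passed 1, and Upk3b, Krt18 and Cdh1 passed 10, through the controls alone, so that the counts and medians beside these shares are descriptions. The median log2 fold change of the 10 genes was −2.79, against −0.03 over the 11758 genes tested. A log2 fold change below −2 was found for 9 of the 10 genes, compared with 3.33% of the genes above a mean CPM of 10 and 8.34% of those above 1. Summed over the 10 genes, the level was 43.4 and 39.3 CPM in the INK128 rOvaries, 247 CPM in Control 1 and 109 CPM in Control 3.

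None of the 10 genes was called as changed at an adjusted p below 0.05 in edgeR's quasi-likelihood test, although 9 had an unadjusted p below 0.05, as did 18.7% of all genes above a mean CPM of 10 and 19.5% of those above 1 in the same direction. Their adjusted p-values in edgeR ran from 0.0526 for Upk3b to 0.295 for Krt8. In that test 3.19% of genes above a mean CPM of 10 were called lower, and 0% of genes in the fit down to a mean CPM of 1, which was used for the 6 less abundant genes of the list. DESeq2 called 8 of the 10 genes lower, all except Krt8 and Lrrn4, where 15.1% and 13.6% of all genes were called lower in the respective fits. limma voom called 0 of the 10 and 0% of all genes, with 6 of the 10 at an unadjusted p below 0.05. When all genes with at least 1 count were tested, edgeR called 8 of the 10 and 5.49% of all genes lower. With relative log expression factors and with library totals it called 0 of the 10, where 3.21% and 4.93% of genes above a mean CPM of 10 were called lower. In the fit down to a mean CPM of 1, used for the 6 less abundant genes, both settings called 0% of all genes lower. With Control 1 left out, edgeR called 7 of the 10 lower (23.2% and 24.5% of all genes), and with Control 3 left out it called 10 of 10 (21.4% and 22.7% of all genes).

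**Figure D1:**
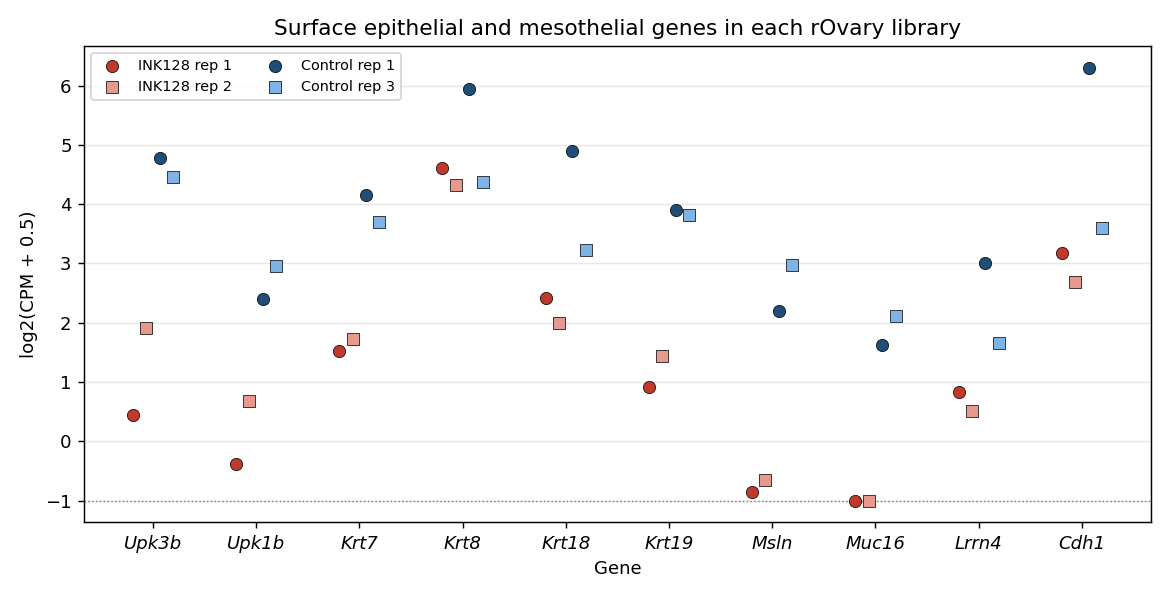
Level of each of the 10 genes as log2(CPM + 0.5) in the 4 libraries, with red symbols for INK128 rOvaries and blue symbols for controls. The dotted line marks 0 counts, where both INK128 rOvaries lie for Muc16. Blue symbols lie above red ones for every gene except Krt8, where Control 3 (20.1 CPM) lies between both INK128 rOvaries (23.8 and 19.5 CPM).

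The sequence before the start of 4 of these genes is given to set the promoter of a mesothelial marker beside those of simple-epithelium keratins, of which Krt8 and Krt18 encode filament partners and lie close together on chromosome 15. The sequences are the 250 bases upstream of each RefSeq start on GRCm38.p6, 5′ to 3′ on the gene's strand. Capitals mark a GC box (GGGCGG) or an E-box (CAGGTG) on either strand. No 2 of these motifs overlapped. The gene positions printed below are from GENCODE, whose gene bounds differ from some RefSeq starts. By those bounds the Krt7 window lies within its gene (from 101411043). The windows of Krt8 (gene end 102004482) and Krt18 (gene start 102028180) lie partly within theirs.
Upk3b, chr5:136038246-136038495, plus strand: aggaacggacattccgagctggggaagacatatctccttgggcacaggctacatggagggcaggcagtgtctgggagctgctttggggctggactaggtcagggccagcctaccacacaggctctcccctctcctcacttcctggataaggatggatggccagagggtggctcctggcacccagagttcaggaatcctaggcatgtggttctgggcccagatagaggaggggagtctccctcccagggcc
Krt7, chr15:101412153-101412402, plus strand: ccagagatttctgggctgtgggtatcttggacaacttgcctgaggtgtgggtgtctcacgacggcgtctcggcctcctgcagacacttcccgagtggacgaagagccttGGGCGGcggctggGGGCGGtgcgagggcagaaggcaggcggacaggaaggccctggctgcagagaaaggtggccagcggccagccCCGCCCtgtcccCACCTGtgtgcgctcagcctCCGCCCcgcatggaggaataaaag
Krt8, chr15:102004343-102004592, minus strand: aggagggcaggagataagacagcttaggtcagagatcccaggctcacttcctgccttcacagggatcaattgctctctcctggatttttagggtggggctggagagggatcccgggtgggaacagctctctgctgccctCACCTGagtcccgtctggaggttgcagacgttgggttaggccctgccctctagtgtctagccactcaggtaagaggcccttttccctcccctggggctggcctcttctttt
Krt18, chr15:102027966-102028215, plus strand: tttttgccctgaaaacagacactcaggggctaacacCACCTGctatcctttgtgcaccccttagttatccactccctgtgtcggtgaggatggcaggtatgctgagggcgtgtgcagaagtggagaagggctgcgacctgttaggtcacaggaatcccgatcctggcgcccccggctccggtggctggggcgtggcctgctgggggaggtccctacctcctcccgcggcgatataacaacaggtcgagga
A promoter was found in RefSeq for 6 of the 10 genes, Upk3b, Krt7, Krt8, Krt18, Muc16 and Lrrn4. The E-box was present in 3 of the 6 (Krt7, Krt8 and Krt18) and in 17.2% of all 32851 promoters of the same length. The GC box was present in 1 of the 6, Krt7, at 4 places, and in 32.7% of all promoters. TATAAA was in 0 of the 6 and in 12.4% of all promoters. In the Krt8 promoter the E-box began 111 bases upstream of the start, and in Krt18 it began 214 bases upstream. Upk3b held none of these motifs in its window. A match of letters is a description and says nothing of binding.

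Uroplakins are membrane proteins first known from the bladder lining. Upk3b (ENSMUSG00000042985, chromosome 5 from 136038496 to 136046487) had 0.859 and 3.27 CPM in the INK128 rOvaries and 27.0 and 21.5 CPM in controls. The groups did not overlap, and the controls differed by a ratio of 1.25 and the INK128 rOvaries by a ratio of 3.80. Its log2 fold change was −3.54 (standard error, SE, 0.70, edgeR adjusted p = 0.0526). Upk1b, a tetraspanin on chromosome 16 from 38773184 to 38800328, had 0.268 and 1.10 CPM with INK128 and 4.78 and 7.30 CPM in controls, from 5 and 24 counts against 108 and 173 counts. Its log2 fold change was −3.11 (SE 0.81, edgeR adjusted p = 0.0819). For both uroplakins INK128 1 was the lowest library. Without INK128 1 the log2 fold changes of Upk3b and Upk1b were −2.90 and −2.46, and without INK128 2 they were −4.82 and −4.47. Of the other uroplakins, Upk2 had 0 to 3 counts per library, at or under the floor of 3 counts, and Upk3a had 2 to 8 counts, at most 0.429 CPM. Upk1a had 1.45 and 0.276 CPM with INK128 and 0.31 and 3.16 CPM in controls, and its groups overlapped. The summed level of 6 urothelial markers was 1.01 to 4.40 CPM in all 4 libraries, and Psca, a further bladder marker, was at 0 counts in all of them.

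The keratins differed among themselves. Krt19, a type I keratin of simple and ductal epithelia on chromosome 11 from 100140810 to 100148665, had 1.40 and 2.21 CPM with INK128 and 14.5 and 13.6 CPM in controls. It gave the closest agreement between controls of all 10 genes, with a ratio of 1.07. Its control mean was 14.0 ± 0.635 CPM (SD, n = 2), against 1.80 ± 0.574 CPM (SD, n = 2) in INK128 rOvaries, and its log2 fold change was −2.95 (SE 0.40, edgeR adjusted p = 0.0561). Krt7, a type II keratin on chromosome 15 from 101411043 to 101430313, had 2.36 and 2.81 CPM with INK128 and 17.2 and 12.5 CPM in controls, for a log2 fold change of −2.52 (SE 0.36, edgeR adjusted p = 0.0561). The groups did not overlap for either gene.

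Krt18, on chromosome 15 from 102028180 to 102032027, had 4.83 and 3.50 CPM with INK128, 29.4 CPM in Control 1 and 8.81 CPM in Control 3. The groups did not overlap, but the controls differed 3.34-fold from each other, and the log2 fold change of −2.20 (SE 0.67, edgeR adjusted p = 0.0945) became −1.09 without Control 1. Krt8, its filament partner on chromosome 15 from 101996698 to 102004482, had 23.8 and 19.5 CPM with INK128, 61.3 CPM in Control 1 and 20.1 CPM in Control 3. The groups overlapped, as Control 3 was as low as the INK128 rOvaries. Its log2 fold change was −0.91 (SE 0.56, edgeR adjusted p = 0.295), and it turned to 0.10 (adjusted p = 0.76, edgeR; range over all alternatives 0.000145 to 0.76) without Control 1. Krt8 shares 101 exonic bases, 5.16% of its exons, with the non-coding gene Gm36026 on the other strand, which had 30 and 22 counts with INK128 and 169 and 71 counts in controls. The strand setting of the counting was not given in the sources used here, so reads of the overlap are uncertain. A pseudogene copy, Krt8-ps, had 0 to 2 counts per library.

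Per kilobase of exon, the ratio of Krt8 to Krt18 was 3.61 and 4.08 in the INK128 rOvaries and 1.53 and 1.68 in controls. The groups did not overlap, and the exact permutation test of the log2 ratio gave a two-sided p of 0.333, the smallest that 2 libraries against 2 allow. Krt8 made up 73.2% and 71.2% of the 4 keratins with INK128 and 50.5% and 40.3% in controls. Krt19 made up 4.53% and 8.53% with INK128, 12.6% in Control 1 and 28.7% in Control 3. The ratio of both type II chains to both type I chains was 3.03 and 2.85 with INK128 and 1.19 and 0.895 in controls. These ratios compare transcripts within a library and do not depend on the scaling between libraries. Like the shares, they depend on the exon lengths used. These were 7049 bases for Krt7, and 1437 to 1958 bases for Krt8, Krt18 and Krt19.

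**Figure D2:**
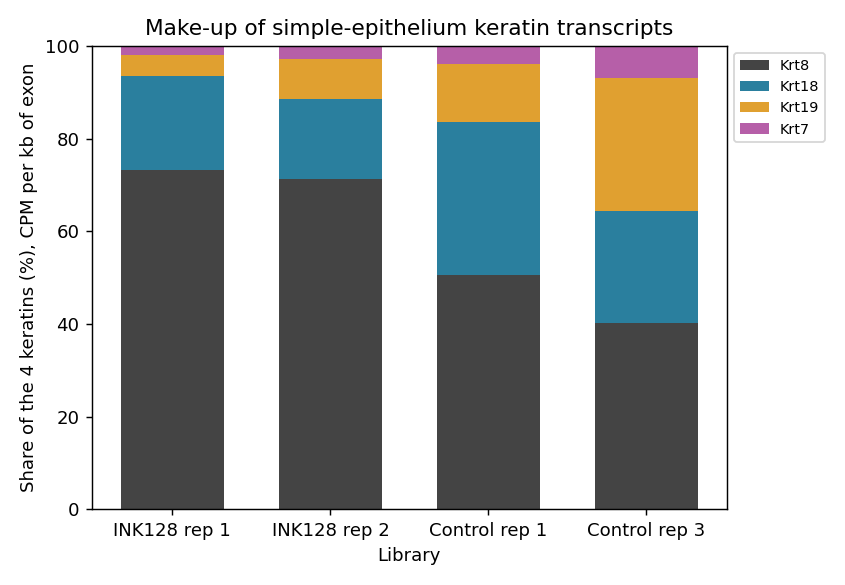
Share of Krt8, Krt18, Krt19 and Krt7 in the sum of these 4 keratins, in percent, from CPM per kilobase of exon, with 1 stacked bar per library. Krt8 makes up over 70% of the bar in the INK128 rOvaries (73.2% and 71.2%) and 50.5% and 40.3% in controls, while Krt19 is widest in Control 3 (28.7%).

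Msln, Muc16 and Lrrn4 encode proteins of the mesothelial surface. With INK128, Msln (chromosome 17 from 25748613 to 25754378) had 1 and 3 counts, against 92 and 175 counts in controls, or 0.0537 and 0.138 CPM against 4.07 and 7.38 CPM. Both INK128 rOvaries lay at the floor of 3 counts or under it. From the summed counts of 4 and 267, the level was 58.2-fold lower with INK128, with a 95% exact interval of 22.5 to 215 that covers counting error only. The fitted log2 fold change was −5.79 (SE 0.77, edgeR adjusted p = 0.0561). Muc16 (chromosome 9 from 18495455 to 18674530) gave 0 counts in both INK128 rOvaries and 58 and 91 counts in controls, or 2.57 and 3.84 CPM. Against a floor of 3 counts per library its level with INK128 was at least 21.4-fold lower (adjusted p = 0.0561, edgeR). For both genes the INK128 rOvaries thus held few or no reads and Control 3 held the most. This pattern was not particular to them. The kidney transporter gene Slc12a1 had 1 and 0 counts with INK128, 9 counts in Control 1 and 258 counts in Control 3. At this depth a low level of Muc16 in the INK128 rOvaries would not have been detectable.

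Lrrn4, a leucine-rich repeat membrane protein on chromosome 2 from 132868305 to 132880891, had 1.29 and 0.92 CPM with INK128, 7.57 CPM in Control 1 and 2.66 CPM in Control 3. Its groups did not overlap, and its controls differed 2.85-fold. The log2 fold change was −2.21 (SE 0.70, edgeR adjusted p = 0.113) and was −1.27 without Control 1. Of the other membrane mucins, Muc1 had 0.644 and 0.966 CPM with INK128 and 4.78 and 1.94 CPM in controls (adjusted p = 0.128, edgeR). Muc20 had 0.376 and 0.552 CPM with INK128 and 5.89 and 0.169 CPM in controls, and its groups overlapped. Among 6 membrane mucins, 3 had a mean CPM above 1, of which 2 were lower in both INK128 rOvaries than in both controls and 0 were called. Over all genes above a mean CPM of 1, 35.3% were lower in both, but all 3 mucins passed that level through the controls alone, so this count is a description.

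Cdh1, on chromosome 8 from 106603351 to 106670246, varied most between the controls. It had 8.59 and 5.93 CPM with INK128, 78.4 CPM in Control 1 and 11.6 CPM in Control 3. Its groups did not overlap, but Control 1 exceeded Control 3 by 6.79-fold. The log2 fold change was −2.63 (SE 0.95, edgeR adjusted p = 0.126), and without Control 1 it was −0.67. Of the 9 genes besides Cdh1 in a list of cadherins and catenins, 6 were lower in both INK128 rOvaries than in both controls, and 1, Ctnnd1, fell in edgeR, where 3.19% of all genes above a mean CPM of 10 were called lower. Ctnnd1 encodes p120 catenin, which holds cadherins at the membrane, and had 150 and 127 CPM with INK128 and 338 and 317 CPM in controls, a log2 fold change of −1.24 (SE 0.19, edgeR adjusted p = 0.0464). This call, like every other call of a single gene named here from edgeR, was lost with limma voom, with the exon length offset, with all genes above a mean CPM of 1 tested, and without either INK128 library, since 0 genes were called in either direction in those fits.

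Of 9 genes of desmosomes and keratin anchors, 7 were lower in both INK128 rOvaries than in both controls and 1 was higher in both. The 1 gene called was Dst, a linker of keratin filaments to the cell membrane, which had 75.2 and 86.2 CPM with INK128 and 201 and 233 CPM in controls, for a log2 fold change of −1.43 (SE 0.19, edgeR adjusted p = 0.0464). Of 12 genes of tight junctions and apical polarity, 10 were lower in both and 1 was higher in both. Again 1 was called, Tjp1, the scaffold protein of tight junctions, which had 84.5 and 76.3 CPM with INK128 and 213 and 180 CPM in controls, which gave a log2 fold change of −1.29 (SE 0.19, edgeR adjusted p = 0.0464). These 3 lists hold genes of many epithelia and of endothelium. Of all genes, 34% and 35.3% lay lower in both INK128 rOvaries, and 3.19% were called lower where Dst and Tjp1 were tested. Ppl, Pkp3 and Cldn7 passed a mean CPM of 1, and Dsc2, Ocln and Cldn3 passed 10, through the controls alone. The counts of these lists are therefore descriptions beside those shares.

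**Figure D3:**
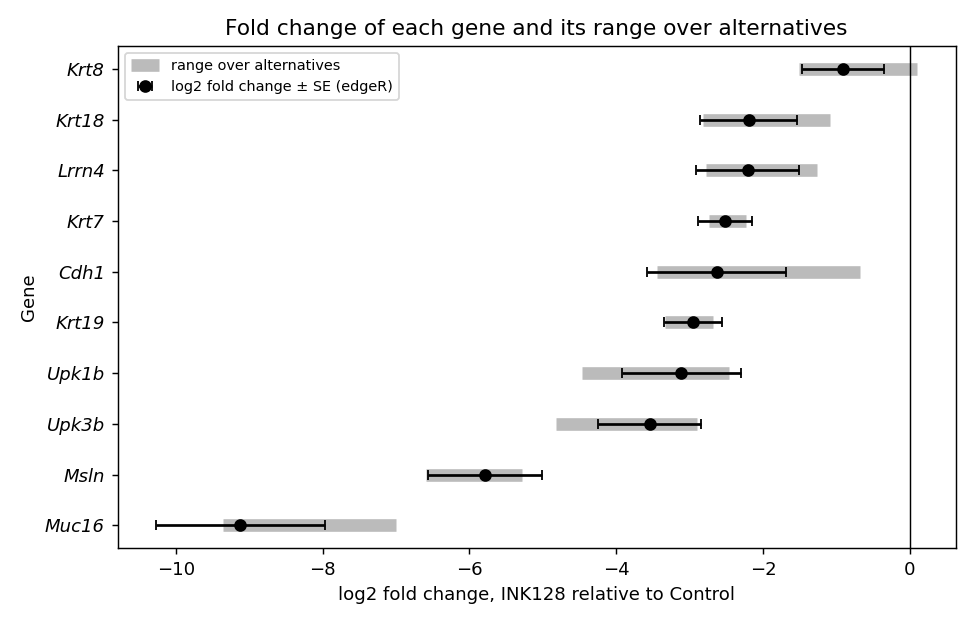
Log2 fold change of each gene, INK128 relative to Control, as black points with the standard error from edgeR, and the range over the 11 alternatives as grey bars. Points run from −9.12 for Muc16, whose value depends on the prior count because both INK128 rOvaries had 0 counts, to −0.91 for Krt8, the gene whose grey bar crosses 0.

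Levels were compared between genes per kilobase of exon, with the length of all annotated exons of a gene joined. For Krt7 this length was 7049 bases, against 1437 to 1958 bases for Krt8, Krt18 and Krt19. The place of Krt7 in the order depends on it. In controls the order of the mean level was Krt8 (20.8 CPM per kilobase), Krt18 (13.3), Cdh1 (9.84), Krt19 (7.56), Upk3b (6.87), Upk1b (2.89), Krt7 (2.11), Msln (1.87), Lrrn4 (1.38) and Muc16 (0.122). The control values of neighbours in this order overlapped, except between Upk3b and Upk1b and between Lrrn4 and Muc16. With INK128 the order was Krt8 (11.04 CPM per kilobase), Krt18 (2.90), Cdh1 (1.59), Krt19 (0.971), Upk3b (0.584), Krt7 (0.367), Upk1b (0.328), Lrrn4 (0.297), Msln (0.0313) and Muc16 (0). Among neighbours in this order the values of Krt8, Krt18, Cdh1 and Krt19 did not overlap, those from Krt19 to Lrrn4 did, and those of Lrrn4, Msln and Muc16 did not.

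The controls differed from each other in a different way from gene to gene. Krt8, Krt18, Lrrn4 and Cdh1 were more than 2-fold higher in Control 1 than in Control 3, by 2.85-fold to 6.79-fold. For Upk3b, Krt7 and Krt19 the ratio of Control 1 to Control 3 was 1.07 to 1.38, and for Upk1b, Msln and Muc16, which were higher in Control 3, it was 0.552 to 0.669. All of these genes were lower in both INK128 rOvaries than in Control 3 alone, with the exception of Krt8. Control 1 was the library with the Y-linked counts and the Sertoli cell markers. Sox9 had 148 CPM there and 4.43 to 6.21 CPM elsewhere, and Dmrt1 had 30.5 CPM there and 0 to 0.138 CPM elsewhere. The part of these cells in the levels of the 4 genes was not tested.

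A longer list of 21 genes used for mesothelium and surface epithelium held genes that lay lower and genes that lay higher with INK128. Of the 20 with a mean CPM above 1, 10 were lower in both INK128 rOvaries than in both controls and 5 were higher in both. Over all genes, 34% above a mean CPM of 10 and 35.3% above 1 were lower in both, and 34.5% and 30.9% were higher in both. Its median log2 fold change was −0.26, 1 gene was called lower, and 2 were called higher, beside 3.19% of all genes called lower and 3.18% called higher. Lgr5 and Slpi passed a mean CPM of 1, and Gpm6a and Rspo1 passed 10, through the controls alone. Cldn15 and Prg4 passed 10 through the INK128 rOvaries alone. The counts and calls of this list are therefore descriptions beside those shares. Gpm6a, a membrane glycoprotein marker of mesothelium, fell from 17.6 and 27.6 CPM in controls to 4.94 and 4.88 CPM, a log2 fold change of −2.20 (SE 0.35, edgeR adjusted p = 0.0464). Rarres2, which encodes the chemoattractant chemerin, rose from 123 and 117 CPM to 311 and 344 CPM, a log2 fold change of 1.45 (SE 0.18, edgeR adjusted p = 0.0464). Nr2f2, a nuclear receptor of stromal cells as well as mesothelium, rose by 1.05 on the log2 scale (SE 0.17, edgeR adjusted p = 0.0475). Several genes of this list are made by granulosa or stromal cells too. Stromal fibroblast markers summed to 10333 and 9461 CPM with INK128 and 8894 and 8274 CPM in controls, and 0 of the 5 was called.

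Kidney tissue lies next to the graft, and its markers differed in the same direction as the 10 genes. Of 18 markers of kidney tubules and collecting ducts, 17 were lower in both INK128 rOvaries than in both controls, beside 34% and 35.3% of all genes above a mean CPM of 10 and of 1. Their summed level was 283 and 375 CPM with INK128 and 919 and 1733 CPM in controls. The exception was Hsd11b2, with 179 and 174 CPM with INK128 and 125 and 117 CPM in controls. In edgeR 4 of them, Slc34a1, Lrp2, Cdh16 and Calb1, fell, where 3.19% of all genes were called lower. Several of the 18, Lrp2, Cdh16 and Calb1 among them, passed a mean CPM of 10 or of 1 through the controls alone, so both counts are descriptions beside these shares. The log2 fold changes of the 4 ran from −4.67 to −3.12 and the adjusted p-values from 0.0464 to 0.0487. Slc12a1, a transporter of the loop of Henle, was at 0 counts in INK128 2 and at 1 count in INK128 1. The part of kidney cells in the levels of the 10 genes was not tested. Markers of the reproductive tract ducts and rete were lower in both INK128 rOvaries for 2 of the 5 genes with a mean CPM above 1, Emx2 and Lypd1, and edgeR called 0 of them. Of 6 granulosa cell markers 0 were lower in both and 3 were higher in both, as were 34.5% of all genes above a mean CPM of 10, and edgeR called 0, with 1 at an unadjusted p below 0.05, Inha, a subunit of inhibin, at 4067 and 5893 CPM with INK128 and 1680 and 2858 CPM in controls.

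**Figure D4:**
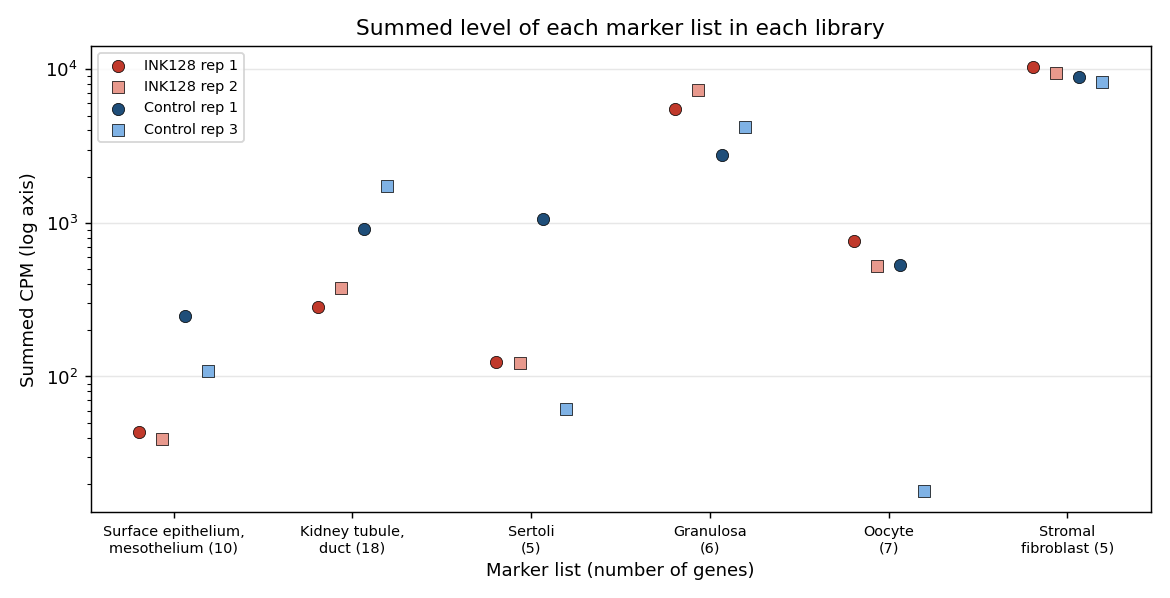
Summed CPM of 6 marker lists in each library, on a log axis, with red symbols for INK128 rOvaries and blue symbols for controls. The 10 surface epithelial and mesothelial genes and the 18 kidney markers lie above both INK128 rOvaries in both controls, Sertoli cell markers are high in Control 1 alone (1067 CPM), and oocyte markers are low in Control 3 (17.9 CPM).

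Profiles over the 4 libraries were then set beside that of Upk3b, the most abundant mesothelial marker of the 10 per kilobase besides the keratins and Cdh1. Among the 5 genes closest to it, of 17630, by the root mean square difference of centred log2(CPM + 0.5) were Ces1f (0.110), Amn (0.115), Defb1 (0.215) and Aqp3 (0.262). Amn encodes a part of a protein uptake receptor of the proximal tubule of the kidney, and Aqp3 a water channel of the collecting duct. Amn had 0.322 and 1.61 CPM with INK128 and 13.1 and 12.6 CPM in controls. Among the other 9 genes of the list Krt19 came closest, at rank 59 with a difference of 0.516, followed by Upk1b at rank 83 and Msln at rank 99. Krt8 was farthest, at rank 4939 with a difference of 1.57. With 4 libraries in 2 groups such likeness is a description only.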

How the data were processed

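RNA-seq libraries of 2 INK128-treated and 2 control rOvaries were analysed, grouped by their labels. The deposited values are whole-number counts for each gene symbol and library, which the authors neither normalized nor pooled. They were obtained with Trimmomatic (trimming), Hisat2 (alignment to mm10) and featureCounts (counting). The strand setting, the handling of multiply mapped reads and tool versions are not given in the sources used here. The 4 columns were matched to libraries by name.

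CPM were computed with TMM factors (0.944 to 1.05) in edgeR 4.0.16 (R 4.3.3). The comparison used the quasi-likelihood test of edgeR. Genes had to exceed a mean of 10 CPM, a level taken from the study, and the p-values of these 11758 genes were adjusted by the method of Benjamini and Hochberg. Less abundant genes of the list were taken from a second fit, with the same factors, of the 17631 genes that exceeded a mean of 1 CPM. Calls needed more than a 1.5-fold change and an adjusted p under 0.05. Dividing each log2 fold change by the root of its F value gave the standard error (SE). All 10 genes passed a mean CPM of 1, and 4 passed 10. Exon lengths and positions came from GENCODE M21 on GRCm38 (mm10), and 99.5% of tested genes had a length. Upstream sequences came from RefSeq on GRCm38.p6. The floor of 3 counts and the exact interval cover counting error only. The fits were tested on simulated data. Alternatives were DESeq2 1.42.0, limma 3.58.1 voom, relative log expression factors, library totals, other filters, an offset for exon length in each library, no fold limit, and leaving out each library.

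The 10 genes and all lists were chosen with earlier results of these data known. From each list the genes called were named, or, where none was, the 2 most abundant and the 2 with the largest fold change, though not every such gene is printed, and for lists of other cell types mostly sums and counts are given. The 5 genes closest to Upk3b were to be named too, of which 1 is not reported here. Hsd11b2, Slc12a1, Lypd1, Psca, Upk2 and Upk3a in the report, and single keratins in the closing section, were chosen after their values were seen. So were genes named only for the group through which they passed a mean CPM.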

Additional observations from a re-analysis of the deposited data

How the results depend on the processing

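The median log2 fold change of the 10 genes kept its sign under all 11 alternatives, from −3.03 with the exon length offset to −2.58 without INK128 1. Over the 10 genes and 11 alternatives, 76 of the values stayed on their side of the threshold, 33 became significant, and 1 turned, Krt8, whose values ran from −1.51 to 0.10 with single libraries left out, the highest being without Control 1. The number of the 10 genes called lower was 0 in edgeR, 8 with DESeq2, 8 when all genes with at least 1 count were tested (5.49% of all genes called lower there), and 0 to 10 with single libraries left out, where the arm left with 1 library was assumed to vary like the other. Both high counts, 7 without Control 1 and 10 without Control 3, came from fits in which the spread was taken from the INK128 rOvaries alone.

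Over all genes, 374 were called higher and 375 lower. DESeq2 called 1595 higher and 1772 lower, library totals 290 and 580, and the fit of genes with at least 1 count 923 and 1728. limma voom (2151 and 1828 at an unadjusted p below 0.05), the exon length offset (1424 and 1709) and a mean CPM above 1 (2395 and 3431) called 0 and 0. Leaving out single libraries gave 0 to 2664 higher and 0 to 2723 lower. The cause was not tested. Library totals lowered the median of all genes to −0.15. No paired analysis was possible because the groups share only replicate number 1. Depth limits Msln and Muc16, which had 0 to 3 counts in each INK128 rOvary.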

Other observations

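Beyond the 4 keratins of simple epithelia, 43 of the 54 keratin genes had a mean CPM of 1 or less, and 7 others exceeded it. Of these 7, 1 was lower in both INK128 rOvaries than in both controls and 3 were higher in both, beside 35.3% and 30.9% of all genes above a mean CPM of 1, and 0 were called by edgeR, with 1 at an unadjusted p below 0.05. Krt80, a type II keratin, had 0.805 and 0.736 CPM with INK128 and 5.62 and 2.83 CPM in controls (log2 fold change −2.45, SE 0.60, edgeR adjusted p = 0.0767). It was the 1 lower gene and passed a mean CPM of 1 through the controls alone. Krt1, 1 of the 3 higher genes, passed it through the INK128 rOvaries alone, so these counts are descriptions. Krt10, a keratin of stratified epithelia, was at 6.92 and 6.21 CPM with INK128 and at 3.32 and 3.42 CPM in controls (adjusted p = 0.153, edgeR). Krt14 and Krt17, keratins of basal cells, had 0 counts in both INK128 rOvaries. In Control 1 they had 62 and 39 counts, and in Control 3 they had 4 and 2 counts.

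Of 10 genes that set epithelial identity, 9 had a mean CPM above 1. Of these, 3 were lower in both INK128 rOvaries than in both controls, a share near the 35.3% of all genes above a mean CPM of 1, and 1 was higher in both. Grhl2, 1 of the 3, passed that level through the controls alone, so this count is a description. Epcam, an epithelial adhesion molecule, had 2.79 and 1.93 CPM with INK128, 39.2 CPM in Control 1 and 8.69 CPM in Control 3 (log2 fold change −3.34, adjusted p = 0.0687, edgeR). Esrp1, a splicing regulator of epithelia, had 27.0 and 15.5 CPM with INK128 and 27.6 and 1.98 CPM in controls, and its groups overlapped. Ehf, an epithelial transcription factor, had 16.1 and 10.6 CPM with INK128 and 30.9 and 13.6 CPM in controls, again with overlap. Grhl2, another such factor, had 0.322 and 0.552 CPM with INK128 and 3.01 and 1.10 CPM in controls (adjusted p = 0.143, edgeR). Of 7 mesenchymal genes 0 were lower in both and 2 were higher in both, Snai2 and Twist1, beside the same 35.3% and 30.9% of all genes. Twist1 had 38.5 and 32.7 CPM with INK128 and 12.3 and 16.1 CPM in controls (log2 fold change 1.32, SE 0.25, edgeR adjusted p = 0.0516). Vim, the intermediate filament of mesenchymal cells, had 873 and 810 CPM with INK128 and 1232 and 699 CPM in controls. Fn1, which encodes fibronectin, had 216 and 266 CPM with INK128 and 82.1 and 343 CPM in controls.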
